A study of Mus musculus with 2 samples.

Results

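This account covers 6 genes associated with blood monocytes: Plac8, Hp, Gda and Ifitm6, known from the classical Ly6C-high subset in mice, and Napsa and Ace, known from the non-classical Ly6C-low subset. They were taken by name, and each had 1 probe set that names it alone, 6 of 19938 genes so measured. RNA came from healing skin of mice whose genotype is labelled TCF reporter, 1 week after wounding, and was hybridised to Affymetrix Mouse Gene ST arrays. Cells labelled B-Gal positive (B-Gal+) and B-Gal negative (B-Gal-), read as with and without beta-galactosidase, gave 1 array each, and both come from the same kind of mouse, tissue and time. Strain, age, sex, the number of mice and the way the cells were separated go unstated in the labels, and the design text speaks of homogenised wound tissue, which holds all its cells. No lacZ probe set was named, so no reporter value could check the labels. With 1 array a group there is no replicate error and no test for any value below, and the number of arrays limits the precision.

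Monocytes leave the bone marrow, circulate, and enter wounded tissue, where classical monocytes give rise to macrophages. The classical subset is recruited through the chemokine receptor CCR2, while the non-classical subset, which depends on the transcription factor NR4A1, patrols the vessel wall. Monocytes lose part of their circulating programme as they mature in tissue. None of the 6 genes is exclusive to monocytes: Hp and Plac8 are also expressed by neutrophils, Plac8 by plasmacytoid dendritic cells and lymphocytes, Ace by endothelium, and Napsa by lung epithelium and some dendritic cells. In RNA from many cells, fewer cells of a type and less RNA per cell cannot be told apart.

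The 6 genes divided evenly by direction. Gda, Ifitm6 and Napsa had higher values in B-Gal+ cells, by 2.44-fold, 2.62-fold and 2.39-fold. Ace, Plac8 and Hp had lower values there, by 7.82-fold, 2.99-fold and 2.69-fold. Each subset was split: of the 4 classical genes, 2 were higher and 2 lower, and of the 2 non-classical genes, 1 was higher and 1 lower. The median difference over the 6 was -0.09 on the log2 scale, beside 0.06 over the 13784 expressed genes. Expressed means at least 1 array above a floor of 5.59 on the log2 scale, the 95th percentile of 1194 olfactory and vomeronasal receptor genes. All 6 genes lay above this floor in both arrays, so every fold is a measured value and not a bound.

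**Figure D1:**
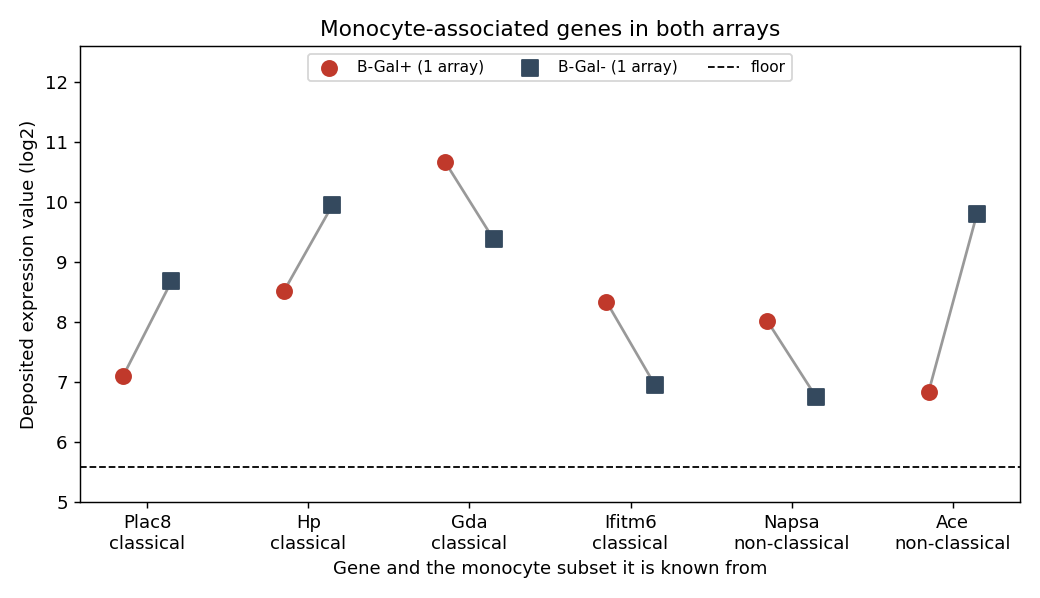
Deposited expression value (log2, vertical axis) of each of the 6 genes in B-Gal+ cells (circles) and B-Gal- cells (squares), 1 array each, with the floor of 5.59 as a dashed line. Gda, Ifitm6 and Napsa sit higher in B-Gal+ cells, and Plac8, Hp and Ace sit lower, with the steepest line for Ace.

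Values higher by 2-fold or more were found for 3 of the 6 genes, against 9.92% of expressed genes, and values lower by 2-fold or more for 3 of the 6, against 12.7%. In either direction it was 6 of 6 against 22.6%. The genes were put together with earlier results of these arrays known, so that this share is no evidence about monocyte genes in general. At 1.5-fold, 38.8% of expressed genes passed with the same 6. At 4-fold, Ace alone of the 6 passed, and 8.73% of expressed genes did. Among the receptor genes, which serve as a gauge of noise, 2.68% differed by 2-fold or more in either direction. Their median difference was 0.28, so the gauge is not centred on equal values. Most receptor values lie under the floor by its definition, while the 6 genes lie above it, so the gauge describes lower values than theirs.

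**Figure D2:**
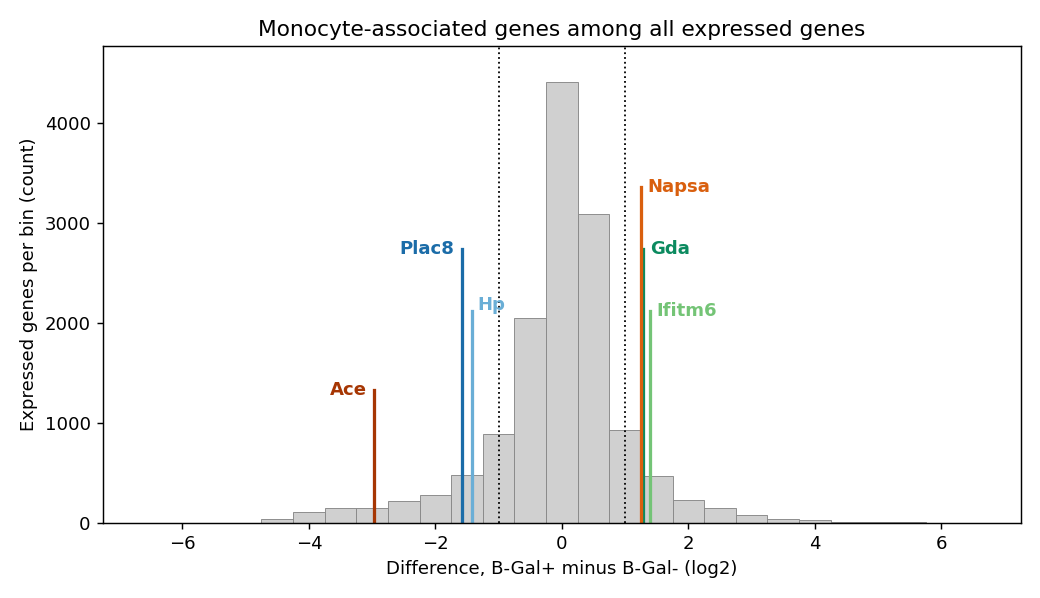
Histogram of the difference between B-Gal+ and B-Gal- cells (log2, horizontal axis) over the 13784 expressed genes, with the 6 genes as coloured lines whose heights carry no value and dotted lines at a 2-fold difference. Ace lies farther out than the other 5, at -2.97, and all 6 lie outside the dotted lines.

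Among the classical genes, Plac8 encodes a small cysteine-rich protein, also called onzin, of myeloid and lymphoid cells. Its value was 7.10 in B-Gal+ cells and 8.68 in B-Gal- cells on the log2 scale, a difference of -1.58. Of the expressed genes, 7.62% had a difference as low or lower, and 3 of the 1194 receptor genes had one as large in either direction. The other genes with a PLAC8 domain did not differ by 2-fold. Cnfn, which encodes cornifelin of the cornified envelope, had a log2 value of 6.18 in B-Gal+ cells and 6.05 in B-Gal- cells, and Plac8l1 was under the floor in both. The 300 bases around the upstream of 2 Plac8 start sites in RefSeq (chr5:100572156-100572455, minus strand, GRCm38.p6, from 250 bases before to 50 after the start) are printed to show where matches to motifs of monocyte factors lie. Capitals mark the core of PU.1, the master factor of monocytes, searched as GAGGAA on both strands.
Plac8: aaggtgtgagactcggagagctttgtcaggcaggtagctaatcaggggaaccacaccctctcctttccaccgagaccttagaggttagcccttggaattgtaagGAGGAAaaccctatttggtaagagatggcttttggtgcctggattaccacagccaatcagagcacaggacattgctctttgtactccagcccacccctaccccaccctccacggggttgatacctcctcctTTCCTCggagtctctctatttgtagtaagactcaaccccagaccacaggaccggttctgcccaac
The core occurred at -146 to -141 from the start on the gene strand and at -15 to -10 on the opposite strand. The window of the downstream start held no match to GAGGAA and 1 match to the C/EBP motif, TTGCNNAA.

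Hp encodes haptoglobin, the plasma protein that binds free haemoglobin. The liver secretes most of it, and it is also stored in neutrophil granules. The value was 8.52 in B-Gal+ cells and 9.95 in B-Gal- cells (log2), a difference of -1.43, and 8.62% of expressed genes had a difference as low or lower. Of the 9 other expressed genes of haemoglobin clearance and haem iron handling, 6 were higher by 2-fold or more in B-Gal+ cells and 0 lower, with a median of 1.61. All 9 had a difference above that of Hp. Cd163, the macrophage receptor for the complex of haptoglobin and haemoglobin, had log2 values of 10.54 in B-Gal+ cells and 4.29, under the floor, in B-Gal- cells, and was at least 30.9-fold higher. Hmox1, which opens the haem ring, was 4.65-fold higher, and the biliverdin reductase genes Blvra and Blvrb were 4.26-fold and 3.20-fold higher. Hp and Cd163 thus differed in opposite directions between the 2 arrays.

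Gda encodes guanine deaminase, which turns guanine into xanthine. Its value was 10.67 in B-Gal+ cells and 9.38 in B-Gal- cells (log2), a difference of 1.29, and 6.94% of expressed genes had a difference as high or higher. Of the 9 other expressed genes of purine breakdown and salvage, 2 were higher by 2-fold or more and 3 lower, around a median of 0.42. Hprt, which salvages guanine and hypoxanthine, was 2.46-fold higher, and Nt5e, the surface enzyme that makes adenosine from AMP, was 2.38-fold lower. Uox, the urate oxidase gene, is among the 3 lower ones only by a value under the floor in B-Gal+ cells, and was at least 1.02-fold lower. The Gda window (chr19:21472612-21472911, minus strand, GRCm38.p6) is shown for comparison with Plac8, which differed in the other direction, and its capitals mark a C/EBP match on the opposite strand and a PU.1 core on the gene strand.
Gda: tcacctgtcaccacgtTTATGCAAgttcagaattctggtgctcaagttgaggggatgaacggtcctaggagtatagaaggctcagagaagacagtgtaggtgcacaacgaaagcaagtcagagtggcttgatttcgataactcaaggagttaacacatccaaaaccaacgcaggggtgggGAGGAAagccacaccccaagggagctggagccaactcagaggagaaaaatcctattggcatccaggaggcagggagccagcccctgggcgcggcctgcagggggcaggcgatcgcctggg
The C/EBP match lay at -234 to -227 and the PU.1 core at -70 to -65 from the start.

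Ifitm6 belongs to the interferon-induced transmembrane proteins, several of which restrict the entry of enveloped viruses. It had log2 values of 8.34 in B-Gal+ cells and 6.95 in B-Gal- cells, a difference of 1.39, and 6.22% of expressed genes had one as high or higher. Of the 6 other family members, 0 differed by 2-fold, and their differences ran from -0.26 to 0.94, all under that of Ifitm6. Ifitm1, Ifitm2 and Ifitm3, which lie next to one another on chromosome 7 with Ifitm6 after Ifitm3 in the order of family members, had differences of -0.04, -0.07 and -0.26. Ifitm3 had log2 values of 11.64 in B-Gal+ and 11.89 in B-Gal- cells. The remaining family genes were higher by less than 2-fold: Ifitm5 by 0.74, Ifitm7 by 0.68 and Ifitm10 by 0.94 on the log2 scale. The interferon response list, in contrast, had 10 of 13 expressed genes higher by 2-fold or more and 0 lower, with a median of 1.31. Its largest differences were those of Oasl1 (2.42), the RNA sensor Ifih1 (2.38), the antiviral gene Rsad2 (2.38) and Oas2 (1.84). The Ifitm6 window (chr7:141016843-141017142, minus strand, GRCm38.p6) is printed because of the family's name: the interferon-stimulated response element, searched on both strands, had no match in it, and the capitals mark a TATA box, TATAAA.
Ifitm6: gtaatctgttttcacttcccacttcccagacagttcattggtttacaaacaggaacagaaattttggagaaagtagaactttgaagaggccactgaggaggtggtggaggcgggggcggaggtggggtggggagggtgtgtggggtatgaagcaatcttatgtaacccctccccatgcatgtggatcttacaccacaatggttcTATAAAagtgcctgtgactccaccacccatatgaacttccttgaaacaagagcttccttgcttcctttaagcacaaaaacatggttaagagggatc
The TATA box lay at -46 to -41 from the start. The window held no match to GAGGAA or TTGCNNAA, the strings searched for PU.1 and C/EBP.

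Among the non-classical genes, Napsa encodes napsin A, an aspartic protease of lysosome-related compartments. Its log2 value was 8.01 in B-Gal+ cells and 6.76 in B-Gal- cells, a difference of 1.26, the smallest of the 6 in size. A difference as high or higher was found for 7.21% of expressed genes. Of the 4 other expressed proteases of its family, 1 was higher by 2-fold or more and 2 lower, with a median of -0.83, or -0.63 when values under the floor were set to it. Ctsd, the lysosomal protease cathepsin D, was 4.02-fold higher, at 13.42 in B-Gal+ cells and 11.41 in B-Gal- cells (log2). The beta-secretase gene Bace1 was 5.90-fold lower, and its relative Bace2, under the floor in B-Gal+ cells, at least 3.27-fold lower.

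Ace encodes angiotensin-converting enzyme, a membrane peptidase that forms angiotensin II and degrades bradykinin. It had the largest difference of the 6, with log2 values of 6.83 in B-Gal+ cells and 9.80 in B-Gal- cells, a difference of -2.97. Of the expressed genes, 2.58% had a difference as low or lower, and 1 receptor gene had one as large. Other genes of angiotensin and kinin peptides were mostly lower as well: of 8 expressed, 5 were lower by 2-fold or more and 1 higher, with a median of -1.67, or -1.38 when values under the floor were set to it. With Ace counted, the median of the list was -2.29, but -1.66 under quantile normalization and -1.05 with no filter, where other genes entered it. Over the same 9 genes, quantile normalization gave -2.33. Bdkrb1, a bradykinin receptor, was 8.65-fold lower. Mme, the peptidase neprilysin, was at least 5.42-fold lower, and the chymase gene Cma1 at least 3.28-fold lower, both under the floor in B-Gal+ cells. Atp6ap2, the prorenin receptor and a proton pump accessory protein, was the 1 higher gene (2.45-fold). The window at the upstream of 2 Ace starts (chr11:105967698-105967997, plus strand, GRCm38.p6), the start of the somatic form, is shown because Ace differed most. Capitals mark PU.1 cores on both strands and a TATA box read on the opposite strand.
Ace: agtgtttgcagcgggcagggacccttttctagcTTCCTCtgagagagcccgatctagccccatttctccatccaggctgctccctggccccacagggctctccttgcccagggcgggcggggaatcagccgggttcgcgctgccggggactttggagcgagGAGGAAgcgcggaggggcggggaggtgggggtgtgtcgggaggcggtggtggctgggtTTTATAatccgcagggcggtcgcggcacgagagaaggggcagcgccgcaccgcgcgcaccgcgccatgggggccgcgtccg
The PU.1 cores lay at -217 to -212 on the opposite strand and at -89 to -84 on the gene strand, and the TATA match at -31 to -26. The window of the downstream start, which serves the testis form, held none of the motifs searched.

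**Figure D3:**
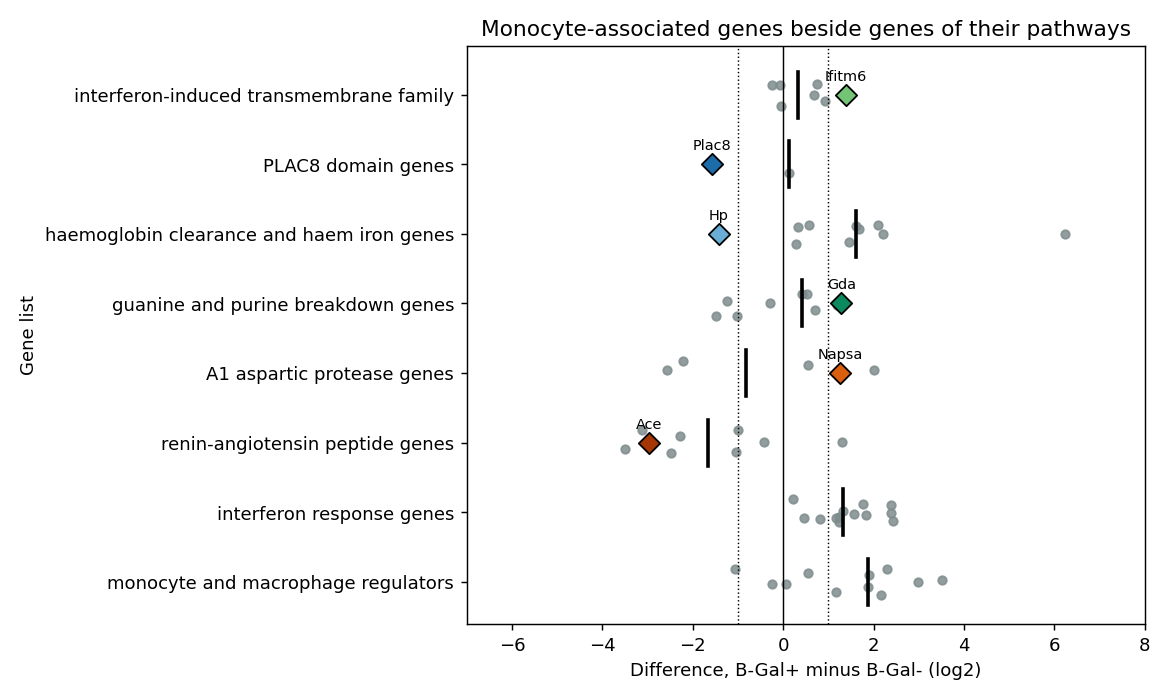
Difference between B-Gal+ and B-Gal- cells (log2, horizontal axis) for expressed genes of 8 pathway and family lists, with the monocyte-associated genes as named diamonds, other genes as grey points and the median of the other genes as a black bar. Hp stands at -1.43 below all 9 other genes of its list, Ifitm6 above the 6 others of its family, and Ace among lower values of the angiotensin and kinin genes.

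The motifs describe letters and show no binding. Each motif was searched only as the string given, and variant or composite forms were not searched. Windows were found in the RefSeq promoter table for 4 of the 6 genes, 6 windows in all. The PU.1 core was present in 3 of these 6, against 28.1% of all 32544 promoter windows of this length. The C/EBP motif was present in 2 of 6, against 10.8%, and the TATA box in 2 of 6, against 13.6%. The interferon-stimulated response element, the NR4A element AAAGGTCA and the TCF/LEF motif ATCAAAG were in 0 of 6, against 3.45%, 1.52% and 3.73%. The PU.1 core was found for Plac8 and Ace, lower in B-Gal+ cells, and for Gda, higher there.

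The monocyte label was set against wider marker lists, none of which holds the 6 genes. Of 11 expressed classical monocyte markers, 8 were higher by 2-fold or more in B-Gal+ cells and 1 lower, with a median of 1.72. When values under the floor were set to it, 7 were higher and the median was 1.55. F13a1, a coagulation factor of monocytes and macrophages, was 20.3-fold higher, the integrin gene Itgam 6.52-fold and the lysozyme gene Lyz2 6.34-fold. Vcan, the proteoglycan versican, was 5.39-fold lower. Ccr2, the receptor that recruits classical monocytes, named here after its values were seen, had log2 values of 10.85 in B-Gal+ and 8.51 in B-Gal- cells. Ly6c2 had no probe set naming it alone. In their differences, Plac8 and Hp both lay below 10 of these 11 markers and above Vcan, and Gda and Ifitm6 lay below 7 and above 4.

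Non-classical monocyte markers all had higher values in B-Gal+ cells, 14 of 14, and 8 of them were higher by 2-fold or more, with a median of 1.20 and a range from 0.28 to 3.78. The receptor genes also had a positive median difference, 0.28, with an SD of 0.37, while the median of all expressed genes was 0.06. Eno3 (0.28), Spn (0.34), Nr4a1 (0.54), Klf2 (0.54) and Itgal (0.64), named after their values were seen, therefore do not stand out from the receptor genes. Cd36, a scavenger receptor, was 13.8-fold higher, the Fc receptor gene Fcgr4 9.54-fold, the fractalkine receptor gene Cx3cr1 7.54-fold and the adhesion gene Ceacam1 4.76-fold. Napsa lay within this range, above 8 and below 6 of the 14, and Ace lay below all 14. Monocyte and macrophage regulators were higher by 2-fold or more for 7 of 11 and lower for 1, with a median of 1.88. They included Spi1, which encodes PU.1 (7.91-fold), the growth factor receptor genes Csf1r (11.5-fold) and Csf2ra (4.50-fold), and Cebpa (4.89-fold). The lists share some genes and are not independent. Of the regulators, Nr4a1 and Cebpb are also non-classical markers, Csf1r a macrophage marker and Irf8 a conventional dendritic cell marker. Cd163 is on both the macrophage and the haem list.

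Macrophage markers were higher by 2-fold or more for 15 of 15, with differences from 1.40 to 6.24 and a median of 3.52. Mrc1, the mannose receptor, was 48.5-fold higher, the complement gene C1qc 38.1-fold and the folate receptor gene Folr2 35.7-fold. All 6 monocyte-associated genes had a difference below those of the 15 markers, although Ifitm6 (1.39) lay only 0.011 under the lowest of them, Lyve1 (1.40). The mean log2 value of the list was 11.64 in B-Gal+ cells and 7.72 in B-Gal- cells, with 15 and 14 of 15 above the floor.

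**Figure D4:**
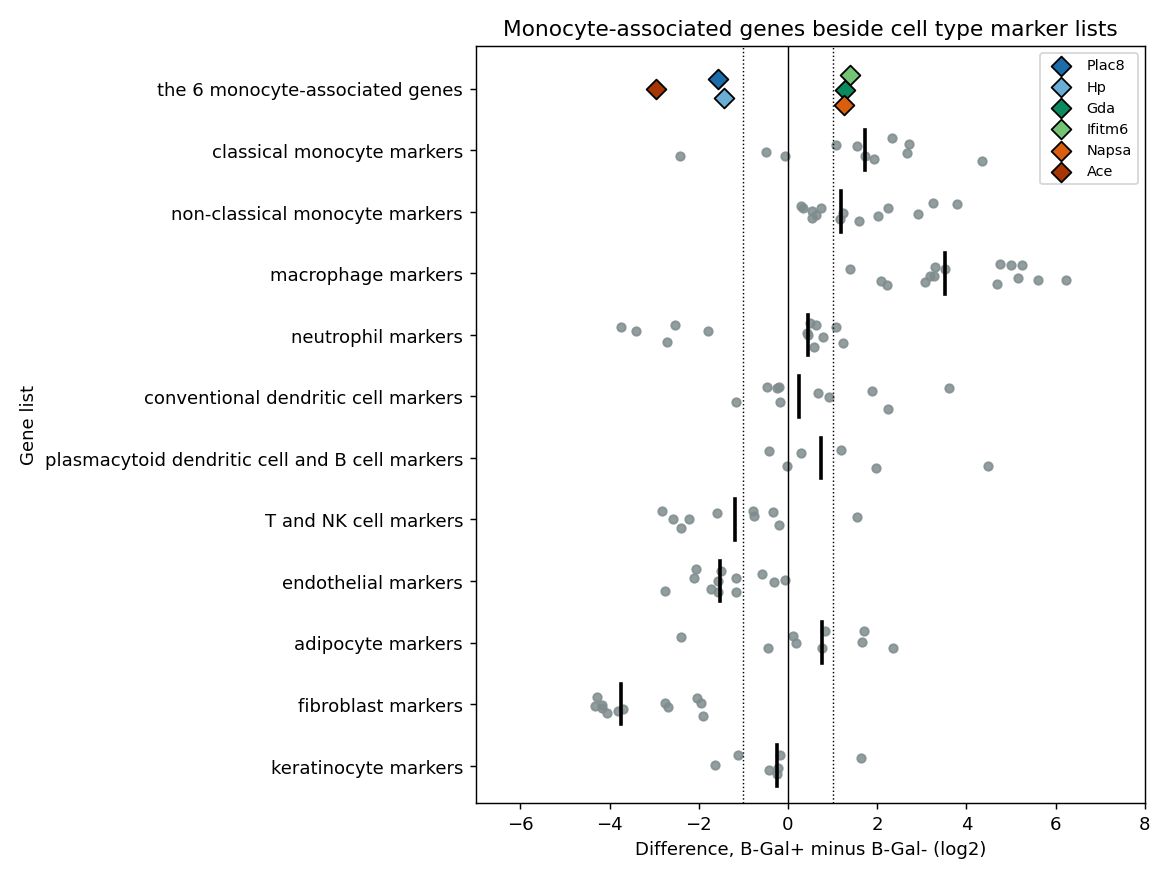
Difference between B-Gal+ and B-Gal- cells (log2, horizontal axis) of expressed markers of 11 cell types, grey points with the list median as a black bar, below the 6 monocyte-associated genes as coloured diamonds, which are set apart vertically for visibility. Gda, Ifitm6 and Napsa fall among the monocyte markers and under the macrophage markers, Plac8 and Hp fall within the ranges of several lists and under all macrophage and non-classical monocyte markers, and Ace falls under all 12 endothelial markers and within the ranges of the fibroblast and neutrophil markers.

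Some neutrophil markers differed in the direction of Plac8 and Hp. Of 13 expressed, 5 were lower by 2-fold or more in B-Gal+ cells and 2 higher, or 0 higher when values under the floor were set to it. The median was 0.45, or 0.12 when such values were set to it, and it turned to -1.79 with the floor at percentile 99 of the receptor genes. S100a9 had log2 values of 5.78 in B-Gal+ and 9.19 in B-Gal- cells, and was 10.6-fold lower. S100a8 was 6.54-fold lower, the granule gene Lcn2 5.76-fold and Cxcr2, a chemokine receptor gene, at least 4.71-fold. By sign, however, 8 of the 13 were higher in B-Gal+ cells and 5 lower. The higher ones included Csf3r (1.40-fold), Mmp9 (1.36-fold) and Cd177 (1.54-fold), above the floor in both arrays and named after their values were seen. Ly6g, Ltf and Ngp were under the floor in both arrays. The mean log2 value of the 16 markers was 5.96 in B-Gal+ cells and 6.51 in B-Gal- cells, with 11 and 8 above the floor. The part of neutrophil RNA in the values of Plac8 and Hp was not tested.

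T and NK cell markers were lower by 2-fold or more for 5 of 10 and higher for 1, with a median of -1.18. When values under the floor were set to it, 4 were lower and the median was -0.78, and with the floor at percentile 99 of the receptor genes it was -2.22. Cd3g was at least 3.42-fold lower, Il2rb at least 4.36-fold, Nkg7 at least 4.36-fold and Gzma at least 2.42-fold. The mean of the 12 markers was 5.30 in B-Gal+ cells and 6.38 in B-Gal- cells (log2), with 4 and 10 above the floor and Cd3d and Klrb1c under it in both. Plasmacytoid dendritic cell and B cell markers were higher by 2-fold or more for 3 of 6 and lower for 0, with a median of 0.74. It was 0.20 under quantile normalization and 0.07 with no filter, where other genes entered the median. Over the same 6 genes, quantile normalization gave 0.69. Leading these markers were the adaptor gene Blnk, higher by at least 19.4-fold, and the B cell surface gene Cd22, by at least 3.28-fold. Of the 10 with a probe set, 6 were above the floor in B-Gal+ cells and 4 in B-Gal- cells, with means of 6.92 and 6.24, and Siglech, Cd79a, Ms4a1 and Pax5 were under it in both. The part of lymphoid RNA in the value of Plac8 was not tested.

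Endothelial markers differed in the direction of Ace. All 12 had lower values in B-Gal+ cells, or 11 of 12 with quantile normalization, 9 of them by 2-fold or more, from -2.75 to -0.06 with a median of -1.53. Tek, the angiopoietin receptor, was 6.74-fold lower, the sialomucin gene Emcn 4.29-fold and the cadherin gene Cdh5 4.16-fold. Ace was lower than all 12 in its difference. Their mean log2 value was 6.56 in B-Gal+ and 7.94 in B-Gal- cells, and all 12 were above the floor in both arrays. Fibroblast markers were lower by 2-fold or more for 12 of 12, with a median of -3.75, and 7 of them had a lower difference than Ace. Pdgfra was 20.0-fold lower, Dpt 19.4-fold, Lum 18.1-fold and Fbln2 18.0-fold, and the mean of the list was 8.76 in B-Gal+ and 12.08 in B-Gal- cells, with all 12 above the floor in both. The part of endothelial or fibroblast RNA in the value of Ace was not tested.

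The remaining lists were mixed. Conventional dendritic cell markers, relevant to Napsa, were higher by 2-fold or more for 3 of 10 and lower for 1, or 0 lower when values under the floor were set to it. Their median was 0.25, but 0.68 with the floor at percentile 99 of the receptor genes and -0.18 with no filter. The lectin gene Clec10a was at least 10.6-fold higher, Itgax 4.75-fold and Irf8 3.68-fold, while Itgae was at least 1.79-fold lower. By sign, 5 of the 10 were higher and 5 lower. Besides Itgae, the lower ones were Flt3 (-0.24), Zbtb46 (-0.21), Ccr7 (-0.18) and Xcr1 (-0.47). Xcr1 was under the floor in B-Gal+ cells. The choice to list these lower genes was made with the data already known. The mean of the dendritic cell markers was 7.12 in B-Gal+ and 6.54 in B-Gal- cells, with 8 and 9 of 11 above the floor. Clec9a was under it in both. The part of dendritic cell RNA in the value of Napsa was not tested. Adipocyte markers were higher by 2-fold or more for 3 of 9, among them Lpl (5.12-fold), and lower for 1, Scd1 (5.30-fold), with a median of 0.77. Adipoq and Lep were under the floor in both arrays. Keratinocyte markers were lower by 2-fold or more for 2 of 7, Krt5 and Krt14, and higher for 1, Itga6, with a median of -0.24, but -0.68 with the floor at percentile 99 of the receptor genes.

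Likeness between genes could be measured only as the gap between their differences, over 2 arrays, and 175 expressed list genes were compared. Nearest to Gda was Atp6ap2 (1.29), nearest to Ifitm6 was Lyve1 (1.40), a receptor of lymphatic vessels and some macrophages, and nearest to Napsa was the interferon-induced gene Oas1a (1.24). Nearest to Plac8 was the NK cell receptor gene Ncr1 (-1.58), nearest to Hp was Uox (-1.49) and nearest to Ace was Cd3g (-2.82). These 3 had a value under the floor in B-Gal+ cells, which has no order, unlike the genes they stand beside. With a single difference per gene, such closeness describes 1 number and no shared pattern.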

How the data were processed

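The authors deposited 1 value for each probe set on each of 2 arrays, with no stated unit. The deposited values were read as log2 because they run from 1.16 to 14.8. Partek is named in the submitters' processing notes. The sources used here do not say how values were summarized, normalized and logged, so every fold rests on that reading. The median was 6.16 in the B-Gal+ array and 6.18 in the B-Gal- array. No scaling was added. Of 28853 probe sets, 21789 named 1 gene in the platform annotation, 1621 named several and 5443 were not listed. For a gene with several, the one with the higher mean over the arrays was taken. Names were updated by gene ID with the RefSeq table of GRCm38.p6, which matched 21698.

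Differences are B-Gal+ minus B-Gal- on the log2 scale. A fold with 1 value under the floor was computed against the floor and is a lower bound, while counts and medians used deposited values. The 6 genes, the 19 lists and the motifs were chosen with earlier results of these arrays known. From each list up to 4 expressed genes with the largest absolute difference were named, with the nearest gene of each of the 6 and all Ifitm and PLAC8 domain genes. Markers named for being under the floor in both arrays, or for having no probe set of their own, were picked outside this rule after values were seen. Of 224 list entries, 16 had no probe set of their own. No p-value was computed. Alternatives were median centring, quantile normalization, loess (span 0.4), an offset of 32, the mean over probe sets, other floors and thresholds. Python 3.11.15, pandas 2.3.3 and statsmodels 0.14.6 were used, and the procedure was tested on simulated data.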

Additional observations from a re-analysis of the deposited data

How the results depend on the processing

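The differences of the 6 genes kept their sign and stayed at least 2-fold under 6 alternatives each: median centring, quantile normalization, loess, the offset of 32, the mean over probe sets and values under the floor raised to it. Ace ran from -3.04 to -2.66 on the log2 scale, Plac8 from -1.64 to -1.38, Hp from -1.50 to -1.35, Gda from 1.23 to 1.31, Ifitm6 from 1.19 to 1.41 and Napsa from 1.05 to 1.30. With 1 array a group, the SD of the receptor gene differences, 0.37, stood in for a replicate spread, and none of these shifts exceeded it. Loess moved the median difference of all genes by -0.14, and the other scalings by under 0.1. With the offset, run on list genes after the data were seen, the difference of Ifitm6 was 1.19, above the lowest macrophage marker at 1.18. Each of the 6 genes has 1 probe set and lies above the floor in both arrays. The mean over probe sets and values raised to the floor therefore change nothing for them by construction. At a threshold of 4-fold, 0 of the 6 genes were higher and 1 lower, instead of 3 and 3. At 1.5-fold, with a higher floor, set at percentile 99 of the receptor genes, or with no filter, the counts were 3 and 3. None of these settings could change the counts, as each gene passed 2-fold and had a value above the higher floor, 6.27. List medians and counts were recomputed under median centring, quantile normalization, values raised to the floor, the higher floor and no filter. Loess, the offset, the mean over probe sets and the other thresholds did not enter this count. Of 285 recomputed, 19 moved, medians by more than that SD or counts by over 1.5 times. With the higher floor the neutrophil median was -1.79, against 0.45 with the floor used. Without a filter the dendritic cell median was -0.18, against 0.25, and the median of the 2-gene PLAC8 domain list was 0.14, against -0.72. The number of genes that enter a median changes with these floors, and can change with the scalings, where the floor was set anew. No paired analysis was possible because each group has 1 array.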
